A study of Mus musculus with 2 samples.

Results

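The imprinted genes described here were 40 genes chosen by name, namely all listed imprinted symbols found among the 32285 features of the count tables, and all 40 were found. Their expression was followed over the cell classes of the embryonic mouse dorsal telencephalon in single-cell RNA-sequencing data. Only the level was measured, because transcripts were not assigned to a parental allele. The 2 libraries, replicate 1 and replicate 3, came from embryonic day 14.5 embryos with the genotype label WT. Their titles carry the line name EoMltt3, the series text describes EomesMllt3 control embryos, and the methods of the study give the strain as C57BL/6J. The tissue label reads brain hemispheres, whereas the extraction text names the dorsal telencephalon, which was dissociated with papain. No treatment was applied, the methods say that embryos were not told apart by sex, and the number of embryos behind each library is not given, so that p-values measure the spread between these libraries.

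In mammals, an imprinted gene is transcribed mainly from the chromosome copy of one parent. The parental mark is DNA methylation laid down in the germline at a control region, which is kept through cell divisions by the maintenance methyltransferase DNMT1 and its partner UHRF1, and protected in the early embryo by ZFP57 and TRIM28. Imprinted genes lie in clusters in which protein-coding genes and long noncoding RNAs of opposite parental origin sit side by side, and many of them act on growth, metabolism and brain development.

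Cell classes were rebuilt by clustering, with the 40 imprinted genes left out of the genes used for it, and were named from marker genes, so each name carries the ending "-like". Levels are UMI counts summed over the cells of a class in a replicate and given as counts scaled to 1000000 UMIs per class and replicate (CPM), always as replicate 1 and then replicate 3. RGC stands for radial glial cell, IPC for intermediate progenitor cell, and MGE and CGE for the medial and caudal ganglionic eminence, the ventral origins of cortical interneurons. The libraries held 6163 and 8870 barcodes with 64182006 and 93295807 UMIs and shared 23 barcode sequences, and 12136 cells in 26 clusters were kept. Projection neuron-like cells numbered 2915 and 3592, RGC-like cells 777 and 1763, IPC-like cells 425 and 707, and MGE interneuron-like cells 336 and 222. The smaller classes were CGE interneuron-like (331 and 30 cells), Cajal-Retzius-like (37 and 84), meningeal-like (46 and 133), pericyte-like (38 and 46), endothelial-like (26 and 46) and red blood cell-like (113 and 158). The red blood cell-like class may be mixed. A cluster of 120 of its cells had 5 of 8 RGC markers on beside 6 of 8 red blood cell markers. Npy, Cxcl14 and Krt14 were among the leading genes of that cluster, and its cells were shallow. The CGE interneuron-like class may be mixed as well. Its cluster had 7 GABAergic, 4 of 6 CGE and 5 of 8 MGE markers on, and 3 each of the RGC, IPC and projection neuron markers. With doublets kept no cluster received this name, and the cluster led by Adarb2 was named LGE neuron-like. MGE interneuron-like cells were shallower, with medians of 4545 and 4056.5 UMIs against 11109 and 10663 in projection neuron-like cells, and had more mitochondrial UMIs, with medians of 4.93% and 5.79% against 3.02% and 3.48%. Of the defining markers, 8 of 8 were on in the meningeal-like, the pericyte-like and the endothelial-like cluster. In the 5 RGC-like clusters no more than 1 marker of any of these 3 lists was on. In the meningeal-like cluster 3 of 8 pericyte markers were also on.

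Promoter sequence was available for 33 of the 40 genes from RefSeq on GRCm38.p6, the release of the mm10 build named in the labels, as windows of 300 bases around the transcription start. The CpG-richest window of each gene held a median of 17 CpG dinucleotides, the sites at which imprints are written, against 8 over all 27025 genes with a window. The hexamer TGCCGC, the sequence that ZFP57 binds when methylated, was found on either strand in the windows of 12 genes (36.4%), and in 13.1% of all genes. The octamer GGGGCCCC was found in 3 genes (9.09%) against 1.25% of all genes, but Peg3 and Usp29 share their match, so these were 2 sites. The imprinted genes had 53 windows for 33 genes and all genes 32851 for 27025, so the former had more chances of a match. TGCCGC also contains a CpG, and matches were not set against windows of like CpG content. At least 20 CpG were held by 36.4% of the imprinted genes and 28.8% of all genes. These matches describe letters only. Windows of 3 loci that return in the results below are printed with each CpG in capitals. Meg3 is shown because its level is followed through all comparisons, Usp29 because its window and that of Peg3 on the opposite strand share 263 of 300 bases, and Plagl1 as the gene with its highest level in RGC-like cells. The Meg3 window (chr12:109540746-109541045, plus strand) held 13 CpG and TGCCGC, the Usp29 window (chr7:6730333-6730632, plus strand) 17 CpG and GGGGCCCC, and the Plagl1 window (chr10:13090582-13090881, plus strand) 26 CpG and TGCCGC.
Meg3: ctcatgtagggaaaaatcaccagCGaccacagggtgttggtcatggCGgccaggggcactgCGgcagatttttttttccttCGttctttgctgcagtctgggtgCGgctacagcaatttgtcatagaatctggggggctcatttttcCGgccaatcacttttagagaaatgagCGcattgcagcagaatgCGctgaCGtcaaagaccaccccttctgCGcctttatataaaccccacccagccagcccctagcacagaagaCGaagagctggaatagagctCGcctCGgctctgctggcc
Usp29: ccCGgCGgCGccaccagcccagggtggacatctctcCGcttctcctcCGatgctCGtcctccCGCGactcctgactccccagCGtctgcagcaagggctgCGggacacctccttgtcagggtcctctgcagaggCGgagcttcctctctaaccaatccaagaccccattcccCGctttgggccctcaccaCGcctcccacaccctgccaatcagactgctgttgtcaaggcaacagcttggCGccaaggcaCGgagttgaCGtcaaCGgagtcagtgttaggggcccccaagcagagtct
Plagl1: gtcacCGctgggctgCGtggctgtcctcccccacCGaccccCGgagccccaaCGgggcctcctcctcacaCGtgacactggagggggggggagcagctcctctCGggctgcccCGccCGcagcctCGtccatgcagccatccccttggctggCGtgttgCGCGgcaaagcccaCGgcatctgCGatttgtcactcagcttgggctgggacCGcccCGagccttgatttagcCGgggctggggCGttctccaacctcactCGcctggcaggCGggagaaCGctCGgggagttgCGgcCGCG

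The 40 genes together supplied under 1% of the UMIs in every class, and their share differed between many classes by more than the replicates did, though the RGC-like and IPC-like values overlapped. The share was 0.323% ± 0.0050 (SD, n = 2) in RGC-like and 0.311% ± 0.018 in IPC-like cells, and 0.414% ± 0.023 in projection neuron-like cells. It was 0.550% ± 0.031 in MGE interneuron-like and 0.673% ± 0.091 in CGE interneuron-like cells, of which the latter may be mixed as given above. The highest shares were those of pericyte-like (0.936% ± 0.089), meningeal-like (0.864% ± 0.039) and Cajal-Retzius-like cells (0.855% ± 0.036), whose ranges overlapped. Endothelial-like cells had 0.434% ± 0.0095. Hem and choroid plexus-like cells, of which replicate 1 held 17, had 0.582% ± 0.029. Red blood cell-like cells, which may be mixed as given above, had 0.172% ± 0.043, the lowest share. Meg3 alone made up 0.620% of these UMIs in RGC-like cells but 6.62% in projection neuron-like, 14.3% in MGE interneuron-like and 22.8% in CGE interneuron-like cells.

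**Figure D1:**
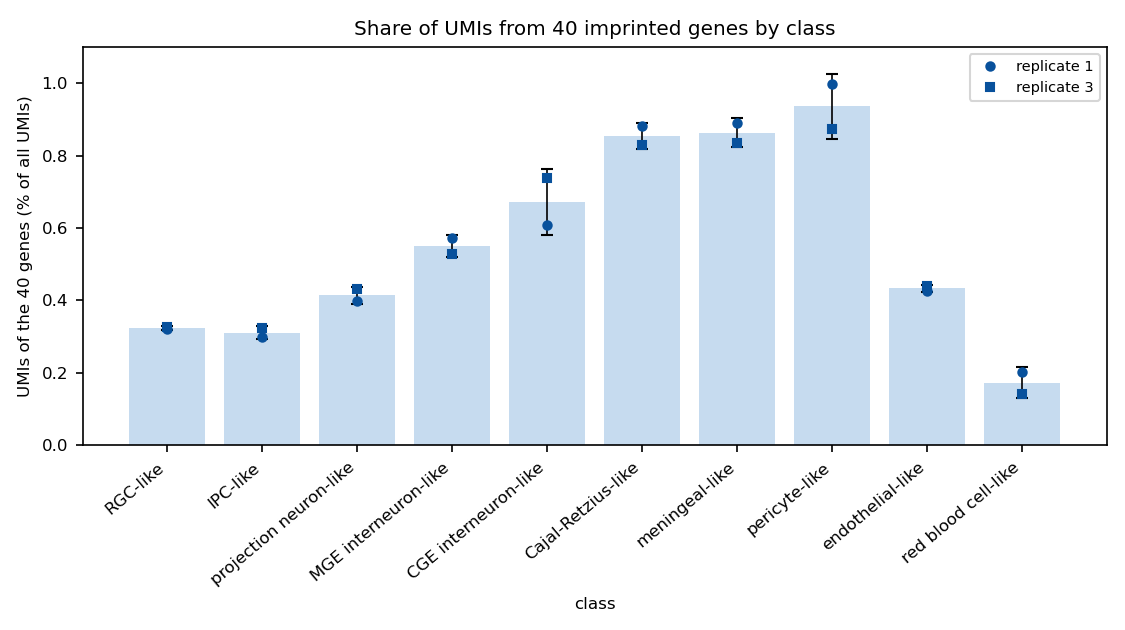
Share of UMIs from the 40 imprinted genes (y axis, % of all UMIs) in each class (x axis), with bars for the mean, error bars for the SD over 2 replicates and markers for each replicate. Pericyte-like cells had the highest mean, 0.936%, and red blood cell-like cells the lowest, 0.172%.

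Across the 10 classes with at least 20 cells in each replicate, the class with the highest level was meningeal-like for 10 of the 40 genes, CGE interneuron-like for 9, pericyte-like and Cajal-Retzius-like for 6 each and endothelial-like for 4. In 22 genes the replicates of the highest class did not overlap those of the next class. This held for all 6 genes highest in pericyte-like cells and for 4 of 6 in Cajal-Retzius-like cells. It held for only 2 of 9 in CGE interneuron-like cells, which may be mixed and of which replicate 3 held 30. None of the 40 genes had its highest level in IPC-like cells, and Plagl1 was the only one that had it in RGC-like cells. None of these counts was made over all genes, so they do not set imprinted genes apart. In the tests, 37 of the 40 genes passed the filter on low counts, which keeps a gene that is detected in only some classes. Phlda2, Magel2 and Mkrn3 did not pass.

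**Figure D2:**
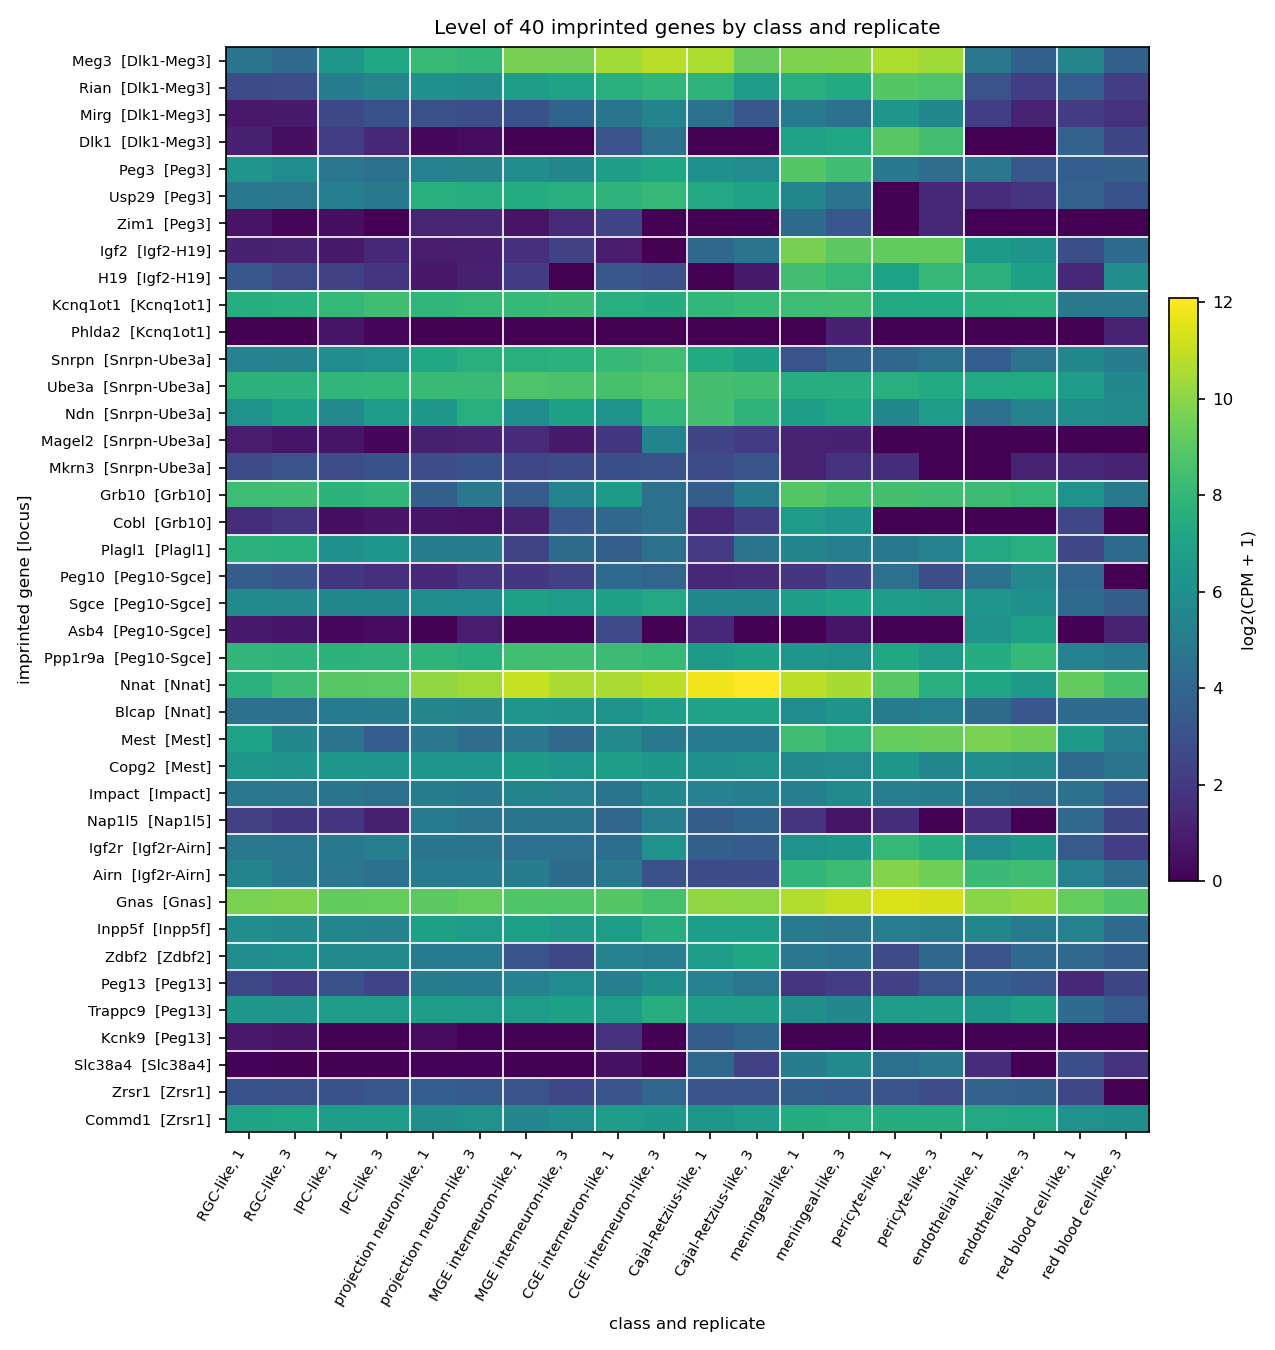
Level of each imprinted gene (rows, grouped by locus, which is given in brackets) in each class and replicate (columns), as log2(CPM + 1) in colour. Dlk1, Igf2, H19 and Airn are bright in the meningeal-like and pericyte-like columns, and Nnat is brightest in Cajal-Retzius-like cells, at 3650.5 and 4326 CPM.

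The first comparison followed the step from RGC-like cells, the dividing stem cells of the cortical wall, to IPC-like cells. The noncoding RNAs of the Dlk1-Meg3 locus rose together, while Mest, Peg10, Peg3 and Plagl1 fell. Of 37 genes tested, 8 were higher in IPC-like cells, against 11.0% of all 12773 genes tested, and 6 were lower, against 17.0%. The median log2 fold change of the imprinted genes was -0.19, and that of all genes -0.07. Each of the 40 genes that was called in this or a following comparison moved the same way in both replicates of it.

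Meg3, a maternally expressed long noncoding RNA, rose from 23.7 and 16.3 CPM in the RGC-like to 83.1 and 151 CPM in the IPC-like class. Both IPC-like values lay above both RGC-like values. The log2 fold change was 2.56 ± 0.42 (SE, edgeR adjusted p = 0.000185), but it was only 1.18 (adjusted p = 0.0732) with doublets kept. Its downstream neighbour Rian, the host of small nucleolar RNAs, rose from 6.03 and 6.27 to 32.6 and 44.5 CPM, a log2 fold change of 2.60 ± 0.30 (SE, edgeR adjusted p = 5.10e-06). Mirg, the host of a microRNA cluster, rose from 0.765 and 0.812 to 5.19 and 7.25 CPM, a log2 fold change of 2.58 ± 0.36 (SE, edgeR adjusted p = 3.24e-05). The paternally expressed gene of the same locus, Dlk1, a transmembrane protein related to Notch ligands, was low in both classes, rising from 1.15 and 0.406 CPM to 3.53 and 1.5 CPM, a log2 fold change of 1.44 ± 0.44 (SE, edgeR adjusted p = 0.0248). This Dlk1 call was lost with doublets kept (0.76, adjusted p = 0.455), at the finer clustering resolution of 2.0 (0.89, adjusted p = 0.173) and with a stricter filter on cells (at least 3000 UMIs and under 5% mitochondrial UMIs, adjusted p = 0.0746).

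Mest, which encodes a hydrolase-like protein of the endoplasmic reticulum, fell from 127 and 47.8 CPM in RGC-like to 24.3 and 11.1 CPM in IPC-like cells, a log2 fold change of -2.30 ± 0.41 (SE, edgeR adjusted p = 0.000378). Its level in replicate 3 was under that of replicate 1 in both classes, yet the groups did not overlap. Peg10, a gene derived from a retrotransposon, fell from 10.7 and 8.17 to 2.91 and 2.19 CPM, a log2 fold change of -1.77 ± 0.47 (SE, edgeR adjusted p = 0.00917), which missed the threshold with doublets kept (adjusted p = 0.0532). Peg3, a zinc finger protein, fell from 77.2 and 58.5 to 26.2 and 20.5 CPM, a log2 fold change of -1.52 ± 0.24 (SE, edgeR adjusted p = 0.000147). Plagl1, a zinc finger transcription factor that restrains proliferation, fell from 219 and 202 to 65.7 and 79.7 CPM, a log2 fold change of -1.52 ± 0.31 (SE, edgeR adjusted p = 0.00123).

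The remaining 6 calls of this step were smaller or rested on few UMIs. Kcnq1ot1, Snrpn, Blcap and Nnat rose, with log2 fold changes of 0.63, 0.66, 0.54 and 0.93, and the call of Nnat was lost with plain library sizes, DESeq2 and the stricter filter (adjusted p = 0.0645, 0.0504 and 0.0726). The calls of Kcnq1ot1 and Blcap were lost without a filter on low counts (adjusted p = 0.0695 and 0.0658). Cobl fell, from 2.01 and 2.53 to 0.416 and 0.547 CPM. Kcnk9, a potassium channel, had 20 UMIs in the RGC-like class but 0 in the IPC-like class, which is at least 2.48-fold lower when 3 counts over the IPC-like cells are taken as the limit. All the RGC-like UMIs of Kcnk9 lay in 1 cluster, led by Rmst, and finer clustering turned the direction (log2 fold change 2.22, adjusted p = 0.00419). The call was also lost with DESeq2 and with the stricter filter (adjusted p = 0.146 and 0.286). With the replicate as a block Commd1 was also called (log2 fold change -0.35, adjusted p = 0.0457).

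The next question was how projection neuron-like cells, the glutamatergic neurons born from these progenitors, compare with RGC-like cells. Imprinted genes moved in both directions here. Of 37 genes, 15 were higher in the neurons against 26.6% of all genes, and 9 were lower against 28.8%. The median log2 fold change was 0.21 for the imprinted genes and -0.04 for all genes. From IPC-like to projection neuron-like cells 13 genes rose (background 21.2%) and 5 fell (background 18.9%), with medians of 0.49 and 0.00, and the former was 0.34 with genes at 0 UMIs in IPC-like cells set to their bound.

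Over the class as a whole Meg3 rose further, but not in every cluster. Summed over all projection neuron-like cells, Meg3 reached 293 and 253 CPM, a log2 fold change of 3.88 ± 0.44 (SE, edgeR adjusted p = 7.44e-07) over RGC-like cells and of 1.33 ± 0.40 (SE, edgeR adjusted p = 0.0129) over IPC-like cells. In the projection neuron-like cluster led by Nrp1, Meg3 lay under both IPC-like values, as given below. Rian reached 65.6 and 60.6 CPM, a log2 fold change of 3.41 ± 0.30 (SE, edgeR adjusted p = 2.94e-08) over RGC-like cells. Mirg, at 6.9 and 6.54 CPM, was higher than in RGC-like cells by 2.77 on the log2 scale, and its change from IPC-like cells was 0.19 ± 0.30 (SE, edgeR adjusted p = 0.649). Dlk1 went the other way, from 3.53 and 1.5 CPM in IPC-like cells to 0.206 and 0.305 CPM, a log2 fold change of -2.16 ± 0.41 (SE, edgeR adjusted p = 0.000618), which missed the threshold with doublets kept (adjusted p = 0.0621). Thinned to 3000 UMIs per cell, Meg3 was seen in 5.44% and 4.37% of RGC-like cells and in 36.7% and 34.2% of projection neuron-like cells, where 23 and 47 and then 75 and 157 shallower cells were left out. Without thinning the mean shares were 15.4% and 54.4%.

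Several paternally expressed genes rose in the neurons as well. Nap1l5, an intronless gene related to nucleosome assembly proteins, had 3.92 and 2.84 CPM in the RGC-like class, 2.7 and 1.09 CPM in the IPC-like class and 30.2 and 23.8 CPM in the neurons. This gave a log2 fold change of 3.04 ± 0.29 (SE, edgeR adjusted p = 1.02e-07) over RGC-like and 3.82 ± 0.36 (SE, edgeR adjusted p = 1.63e-07) over IPC-like cells. Usp29, a ubiquitin-specific protease, was at 29 and 26.4 CPM in the RGC-like and 35.9 and 28.9 CPM in the IPC-like class and rose to 197 and 184 CPM, a log2 fold change of 2.67 ± 0.21 (SE, edgeR adjusted p = 1.87e-08) over IPC-like cells. Its neighbour Peg3 was not higher in the neurons than in RGC-like cells but lower, at 39 and 41 CPM, with a log2 fold change of -0.63 (edgeR adjusted p = 0.0244) that was lost with DESeq2 (0.0670), without a filter on low counts (0.111) and with doublets kept (0.118). Peg13, a noncoding RNA within an intron of Trappc9, rose from 5.07 and 3.43 to 33.8 and 31.3 CPM, a log2 fold change of 3.01 ± 0.24 (SE, edgeR adjusted p = 9.05e-09). Trappc9, a trafficking factor, was at 84.8 and 76.9 CPM in the RGC-like class and 104 and 101 CPM in the neurons, a log2 fold change of only 0.47 ± 0.19 (SE, edgeR adjusted p = 0.0446) that was lost with plain library sizes (adjusted p = 0.170), with DESeq2 (0.0902) and with doublets kept (0.125). Because Peg13 and Trappc9 lie on the same strand, intronic UMIs of the 2 genes may not be separable.

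Of the other genes higher in the neurons, Nnat, a small membrane protein of developing neurons, rose from 209 and 309 to 1105 and 1299 CPM, a log2 fold change of 2.33 ± 0.35 (SE, edgeR adjusted p = 1.94e-05). Snrpn, a component of the spliceosome, rose from 40.2 and 40.8 to 152 and 196 CPM, a log2 fold change of 2.22 ± 0.21 (SE, edgeR adjusted p = 8.31e-08). Snrpn overlaps the counted genes Snurf and Gm38393 on the same strand, so their UMIs may not be separable. Inpp5f, a phosphoinositide phosphatase, and Blcap, which overlaps Nnat on the other strand, rose by 1.06 and 1.09. Ube3a, the ubiquitin ligase lost in Angelman syndrome, Kcnq1ot1 and Zrsr1 had log2 fold changes between 0.54 and 0.67, and the calls of all 3 were lost with plain library sizes. Zim1 had a log2 fold change of 1.58, lost with DESeq2 and with doublets kept (adjusted p = 0.0848 and 0.0771).

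Of the 40 genes, Grb10 fell most between RGC-like and projection neuron-like cells. Grb10 is an adaptor that restrains insulin and insulin-like growth factor signalling, and is known to be transcribed from the maternal copy in most tissues and from the paternal copy in neurons. RGC-like cells held 323 and 331 CPM of it and IPC-like cells 225 and 244 CPM, and projection neuron-like cells 11.7 and 27 CPM, so the neurons lay far under both progenitor classes. The log2 fold change was -3.93 ± 0.46 (SE, edgeR adjusted p = 9.85e-07) from RGC-like and -3.46 ± 0.45 (SE, edgeR adjusted p = 6.84e-06) from IPC-like cells. At 3000 UMIs per cell it was seen in 57.4% and 59.1% of RGC-like, 41.2% and 48% of IPC-like and 3.1% and 7.19% of projection neuron-like cells.

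From IPC-like to projection neuron-like cells Inpp5f, Snrpn, Nnat and Zim1 rose by 1.45, 1.56, 1.40 and 1.93 on the log2 scale, and Peg3, Blcap, Impact and Sgce by 0.90, 0.55, 0.55 and 0.49. Zdbf2 and Commd1 had log2 fold changes of -0.66 and -0.48. Several of these calls depended on the processing. Impact was lost with plain library sizes, DESeq2 and doublets kept (adjusted p = 0.0898, 0.0762 and 0.0550), and Zim1 with DESeq2 and doublets kept (0.0689 and 0.0904). Peg3 was lost with doublets kept (0.0691), Sgce with plain library sizes (0.0701), and Zdbf2 and Commd1 without a filter on low counts (0.0853 and 0.454).

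Plagl1 fell to 32.3 and 34 CPM, a log2 fold change of -2.53 ± 0.31 (SE, edgeR adjusted p = 2.01e-06) from RGC-like cells. Its change from IPC-like cells was -1.02 ± 0.31 (SE, edgeR adjusted p = 0.013), a call lost with DESeq2 (adjusted p = 0.190). The noncoding RNA H19 was low in all 3 classes and fell from 8.61 and 5.28 CPM to 0.734 and 1.07 CPM between RGC-like cells and the neurons, a log2 fold change of -2.43 ± 0.53 (SE, edgeR adjusted p = 0.000851). Mest (-1.79), Peg10 (-1.89), Cobl (-1.55), Zdbf2 (-0.89) and Commd1 (-0.84) were also lower in the neurons than in RGC-like cells on the log2 scale. When the replicate was a block, Gnas (-0.45, adjusted p = 0.0424) and Kcnk9 (-0.94, adjusted p = 0.0482) joined them, and Ndn was called higher than in IPC-like cells (0.96, adjusted p = 0.0182). Commd1 and Zrsr1, which lies in an intron of Commd1, thus had opposite signs from RGC-like to projection neuron-like cells.

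**Figure D3:**
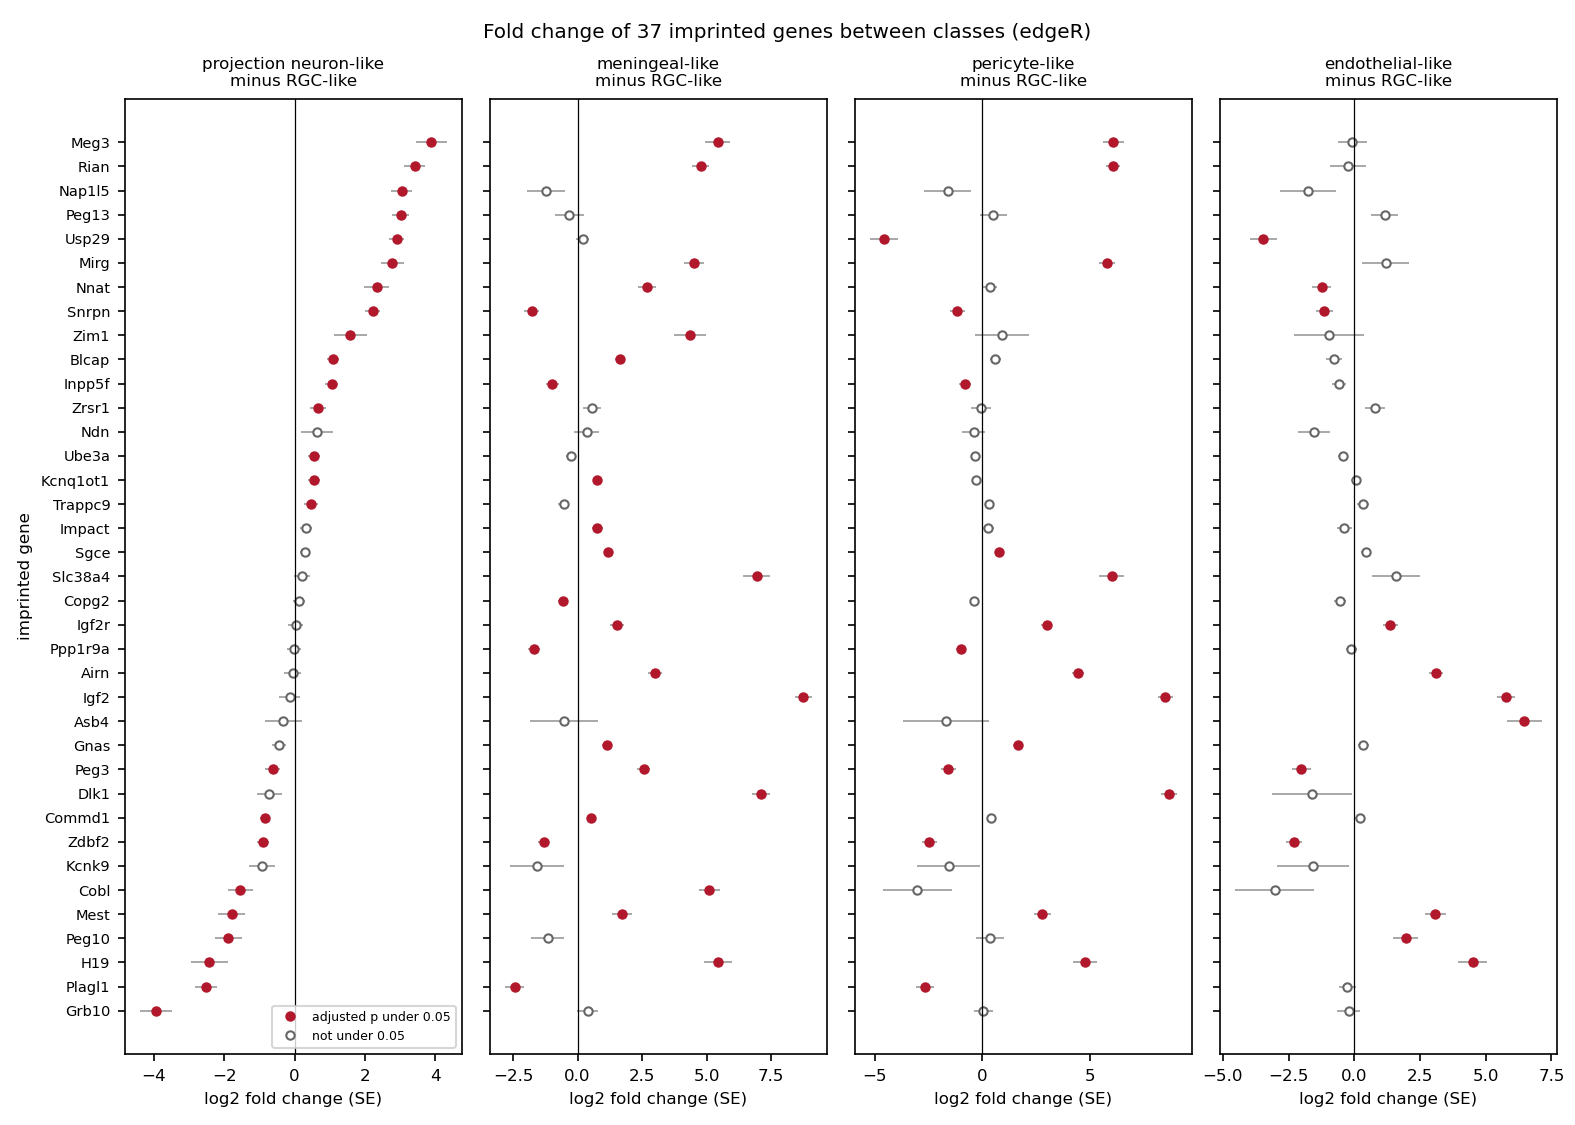
Log2 fold change (x axis, error bars are the SE) of the 37 imprinted genes tested (y axis, sorted by the left panel) for projection neuron-like, meningeal-like, pericyte-like and endothelial-like cells, each minus RGC-like cells, where filled points have an edgeR adjusted p under 0.05. Meg3 is at 3.88, 5.42, 6.10 and -0.07 in the 4 panels, and Grb10 is far from 0 in the left panel only.

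Levels also differed between clusters within a class, which are given as description. The class held 8 projection neuron-like clusters, over which Meg3 ran from 33.8 and 45.6 CPM in the cluster led by Nrp1 to 808 and 746 CPM in the cluster led by Hs3st4. Nap1l5 had another order, from 0.279 and 1.6 CPM in the cluster led by Slc17a6 and Neurod1 to 86.4 and 62 CPM in the cluster led by Ldb2. Grb10 was at 66.5 and 100 CPM in the Slc17a6 cluster and at 1.07 and 5.3 CPM in the Hs3st4 cluster. Ndn, a MAGE family protein, reached 172 and 472 CPM in the Hs3st4 cluster, with replicate 3 far above replicate 1.

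Among the 5 RGC-like clusters, Mest ran from 14.6 and 16.4 CPM in the cluster led by Rmst to 197 and 79.1 CPM in the cluster led by S-phase histone genes. Plagl1 was lowest in the same Rmst cluster, at 124 and 126 CPM, and lay between 191 and 241 CPM in the other 4. Grb10 varied little, from 275 and 305 CPM in the histone cluster to 363 and 349 CPM in the cluster led by Ube2c. Usp29 was at 12.9 and 14.6 CPM in the cluster led by Tshr and at 45.4 and 41.4 CPM in the Rmst cluster. Of the IPC-like clusters, the one led by the cell cycle gene Rrm2 had more Usp29, 71.9 and 56 against 15.1 and 16.5 CPM, and less Meg3, 43.6 and 74.8 against 106 and 186 CPM.

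**Figure D4:**
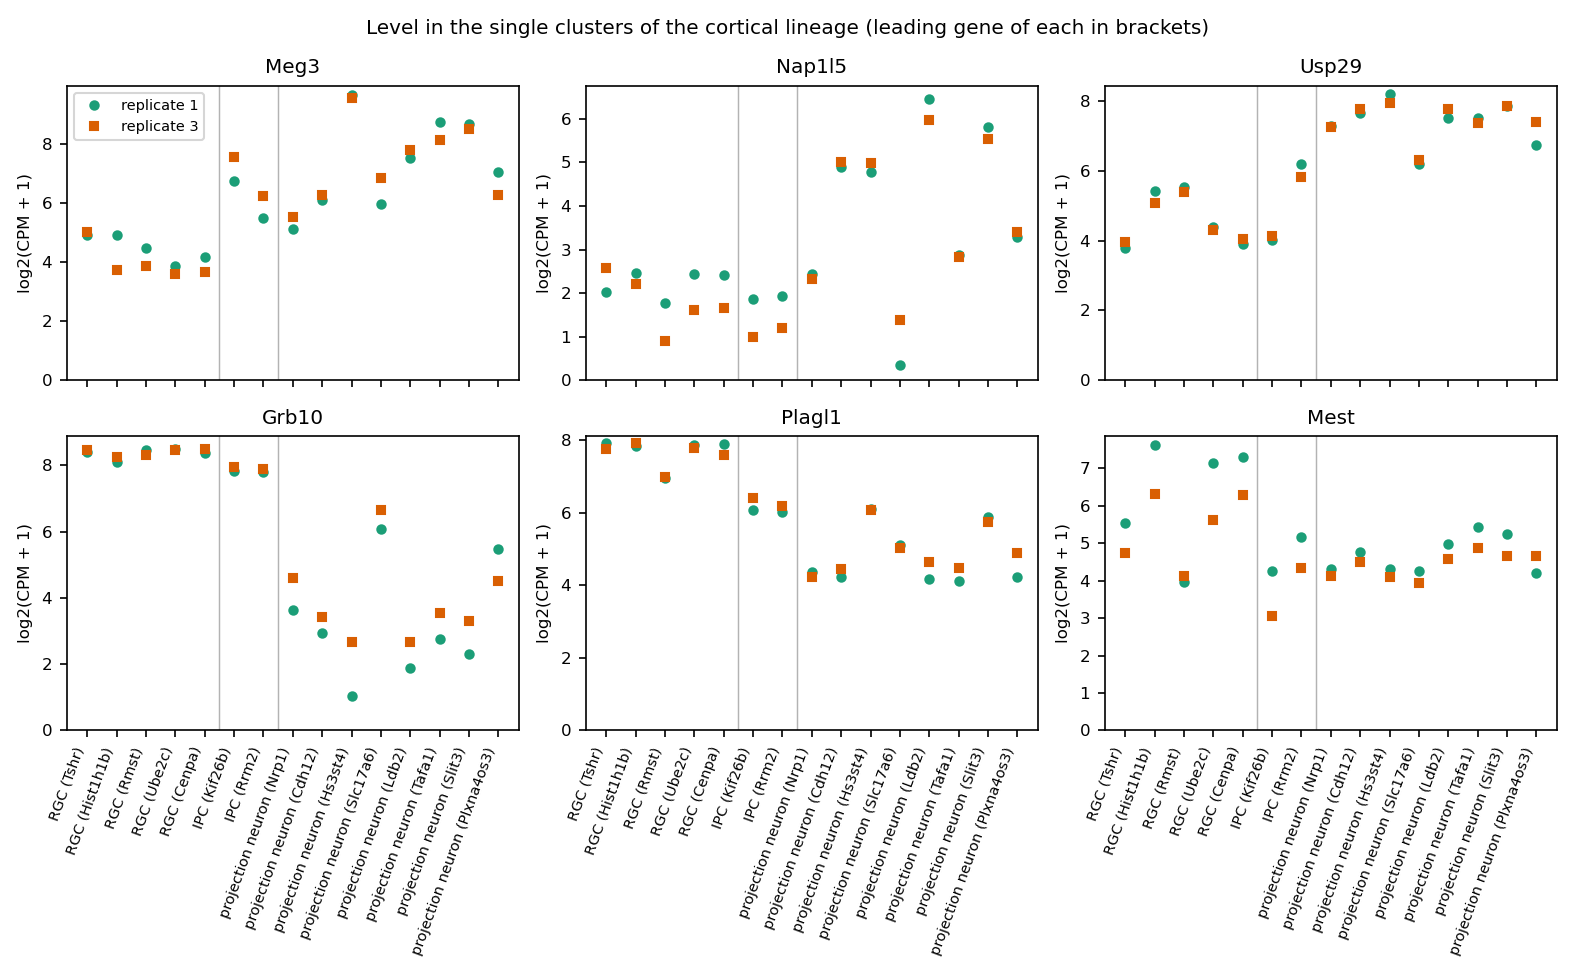
Level as log2(CPM + 1) (y axis) of 6 imprinted genes in the single RGC-like, IPC-like and projection neuron-like clusters (x axis, leading gene in brackets), with a marker for each replicate and vertical lines between the classes. Grb10 is high in all progenitor clusters, and Meg3 is highest in the projection neuron-like cluster led by Hs3st4, at 808 and 746 CPM.

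MGE interneuron-like cells, the GABAergic neurons that migrate into the cortex from the ventral telencephalon, were compared with projection neuron-like cells. Meg3 and Rian were higher and Zdbf2 and Plagl1 lower in the interneurons. Of 37 genes, 6 were higher in the interneurons (background 12%) and 2 were lower (background 16.5%), and a median log2 fold change of 0.09 against -0.05 over all genes. The 8 calls fell to 4 with a stricter filter on cells and to 4 with doublets kept. The interneurons were shallower and had more mitochondrial UMIs, as given above, and the part of this in the result was not tested.

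Meg3 stood at 788 and 783 CPM in MGE interneuron-like cells, above both values of the projection neuron-like class, a log2 fold change of 1.47 ± 0.40 (SE, edgeR adjusted p = 0.011) that missed the threshold with doublets kept (1.09, adjusted p = 0.118). The projection neuron-like cluster led by Hs3st4 was near this level, as given above, so the difference does not hold for every cluster. Rian was at 109 and 124 CPM, a log2 fold change of 0.82 ± 0.28 (SE, edgeR adjusted p = 0.035), also lost with doublets kept (0.47, adjusted p = 0.309) and with the stricter filter (0.85, adjusted p = 0.0620). Cobl, an actin nucleator, was at 1.12 and 8.58 CPM against 0.587 and 0.483 CPM, a log2 fold change of 2.39 ± 0.61 (SE, edgeR adjusted p = 0.00824), and replicate 3 carried most of it. The call of Cobl was lost with the stricter filter (adjusted p = 0.0874). Sgce, Blcap and Ppp1r9a were higher by 0.82, 0.80 and 0.62 on the log2 scale, and the calls of Sgce and Ppp1r9a were lost with doublets kept (adjusted p = 0.0697 and 0.0855). Ppp1r9a was also lost with the stricter filter (0.0614) and without a filter on low counts (0.230).

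Zdbf2, whose product contains a DBF-type zinc finger, was lower in the interneurons, at 7.84 and 5.15 CPM against 29.8 and 31.7 CPM, with no overlap and a log2 fold change of -2.20 ± 0.29 (SE, edgeR adjusted p = 2.93e-05). Plagl1 was lower too, at 4.48 and 18 CPM, a log2 fold change of -1.74 ± 0.46 (SE, edgeR adjusted p = 0.00917), which was lost with the stricter filter (-1.21, adjusted p = 0.167). Ube3a was called higher with the replicate as a block (0.44, adjusted p = 0.0435). Dlk1 had no UMI in MGE interneuron-like cells of either replicate, and 0 of 268 and 0 of 160 cells thinned to 3000 UMIs had one, which allows shares of up to 1.12% and 1.88%. In CGE interneuron-like cells, for which no comparison was set and of which replicate 3 held 30, Meg3 was at 1339.6 and 1735 CPM, Snrpn at 272 and 333 CPM and Zdbf2 at 40.1 and 35.4 CPM. At resolution 2.0 a cluster led by Cntn4, with 7 projection neuron markers and 4 GABAergic markers on, left this class. Meg3 was then at 859.8 and 1675 CPM, a mean below that of pericyte-like cells. The LGE neuron-like cells came from replicate 1 only, where Meg3 stood at 1832 CPM.

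Cajal-Retzius-like cells, early-born neurons of the cortical surface that secrete reelin, differed from projection neuron-like cells in 16 of 37 genes. Of these, 9 were higher (background 11.9%) and 7 lower (background 12.5%), with medians of -0.08 for the imprinted genes, -0.02 when genes at 0 UMIs were set to their bound, and -0.07 for all genes. The scaling mattered in this comparison. Over all genes 1522 were higher and 1592 lower with TMM factors, 2285 and 884 with plain library sizes and 1822 and 1200 with DESeq2, and the imprinted genes were then called 10 higher and 3 lower, and 10 higher and 2 lower.

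The genes that rose in Cajal-Retzius-like cells came from several loci. Kcnk9 was at 10.7 and 15.4 CPM, where the projection neurons had 0.264 and 0.0763 CPM, a log2 fold change of 4.62 ± 0.54 (SE, edgeR adjusted p = 7.32e-05). Slc38a4, an amino acid transporter, was at 15.3 and 4.28 CPM against 0.0881 and 0.0763 CPM, a log2 fold change of 4.32 ± 0.57 (SE, edgeR adjusted p = 3.96e-05). Igf2, the growth factor itself, was at 15.3 and 24 CPM against 0.881 and 1.04 CPM, a log2 fold change of 3.78 ± 0.39 (SE, edgeR adjusted p = 1.47e-06), while its neighbour H19 was at 0 and 0.856 CPM. Kcnk9, Slc38a4 and Igf2 were each close to 0 in projection neuron-like cells. Kcnk9 passed the low-count filter through Cajal-Retzius-like cells, so its p-value is not independent of that filter.

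Nnat and Blcap, which overlap on opposite strands, were both highest in this class, and since strand use in counting is not stated, they may share UMIs. Nnat was at 3650.5 and 4326 CPM and Blcap at 125 and 124 CPM, log2 fold changes of 1.46 ± 0.34 (SE, edgeR adjusted p = 0.00406) and 1.26 ± 0.18 (SE, edgeR adjusted p = 4.34e-05). Zdbf2, low in the interneurons, was at 97.7 and 143 CPM, a log2 fold change of 1.71 ± 0.19 (SE, edgeR adjusted p = 4.63e-06). Meg3 was at 1536 and 612 CPM, so the replicates lay far apart but both above the projection neurons, with a log2 fold change of 1.72 ± 0.40 (SE, edgeR adjusted p = 0.00424). Rian and Gnas, the stimulatory G protein alpha subunit, were higher by 1.09 and 0.67, and Gnas was lost without a filter on low counts (adjusted p = 0.311).

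Airn and Igf2r, an antisense pair in which the paternal noncoding RNA silences the paternal copy of the receptor outside neurons, were both lower in Cajal-Retzius-like cells. Airn was at 6.11 and 5.99 CPM against 31.4 and 30.7 CPM, a log2 fold change of -2.57 ± 0.43 (SE, edgeR adjusted p = 0.000237), and Igf2r at 12.2 and 10.3 CPM against 24.7 and 25 CPM, a log2 fold change of -1.42 ± 0.39 (SE, edgeR adjusted p = 0.0124) with 0.0506 by DESeq2. Ppp1r9a, the actin-binding protein neurabin, had a log2 fold change of -1.29. The calls of Usp29 (-0.75), Sgce (-0.60), Nap1l5 (-1.36) and Plagl1 (-1.32) were lost both with plain library sizes and with DESeq2, those of Usp29, Sgce and Nap1l5 also with doublets kept, and that of Plagl1 also with the stricter filter and at resolution 2.0. With the replicate as a block Ndn was called higher (1.0, adjusted p = 0.0302) and Snrpn lower (-0.58, adjusted p = 0.0394). Ndn stood at 357 and 234 CPM here, above the 85.1 and 187 CPM of the projection neurons in both replicates.

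Meningeal-like cells, the fibroblasts of the brain's covering, were higher in the fetal growth genes Igf2, H19 and Dlk1 and in the Meg3 group, and lower in Plagl1 and Snrpn. Of 37 genes, 20 were higher than in RGC-like cells (background 21.8%) and 6 were lower (background 24.3%), with a median log2 fold change of 0.76 against -0.11 over all genes. Over all genes the balance of calls depended on the scaling, with 2787 higher and 3108 lower under TMM and 3158 and 2270 under DESeq2, whereas the imprinted genes stood at 20 and 5 under DESeq2.

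Igf2 had 1.15 and 1.22 CPM in the RGC-like and 765 and 524 CPM in the meningeal-like class, a log2 fold change of 8.73 ± 0.33 (SE, edgeR adjusted p = 5.21e-12). At 3000 UMIs per cell it was seen in 80.4% and 68.7% of meningeal-like cells. The shares were 0.265% and 0.35% of RGC-like cells and 0.352% and 0.233% of projection neuron-like cells. Whether these low shares reflect expression was not tested. H19, the maternal noncoding RNA that shares its enhancers with Igf2, was at 353 and 266 CPM, a log2 fold change of 5.45 ± 0.54 (SE, edgeR adjusted p = 3.15e-07). Dlk1 was at 123 and 144 CPM, a log2 fold change of 7.09 ± 0.35 (SE, edgeR adjusted p = 8.32e-10). Slc38a4 was at 33.6 and 50.7 CPM against 0.0957 and 0 CPM, a log2 fold change of 6.94 ± 0.52 (SE, edgeR adjusted p = 3.46e-08). Meg3 was at 852 and 872 CPM, a log2 fold change of 5.42 ± 0.47 (SE, edgeR adjusted p = 6.63e-08), and its replicates nearly coincided.

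Peg3 and its neighbour Zim1 had their highest levels in this class. Peg3 was at 477 and 326 CPM and Zim1, a zinc finger gene, at 18.1 and 8.85 CPM, log2 fold changes of 2.55 ± 0.24 (SE, edgeR adjusted p = 1.66e-07) and 4.37 ± 0.62 (SE, edgeR adjusted p = 4.61e-05). Usp29 was at 45.2 and 23 CPM and had 29 and 26.4 CPM in the RGC-like class, so the classes overlapped and the replicates moved in opposite directions, and gave a log2 fold change of 0.20 ± 0.25 (SE, edgeR adjusted p = 0.551). Cobl was at 102 and 80.2 CPM and had 0 UMIs in pericyte-like and endothelial-like cells, with a log2 fold change of 5.10 ± 0.40 (SE, edgeR adjusted p = 5.34e-08) over RGC-like cells. Rian, Mirg, Airn, Nnat, Mest, Blcap and Igf2r were higher by 4.77, 4.5, 2.99, 2.68, 1.70, 1.64 and 1.53 on the log2 scale, and Sgce, Gnas, Impact, Kcnq1ot1 and Commd1 by between 0.51 and 1.19. The genes that fell were Plagl1 (-2.43), Snrpn (-1.78), Ppp1r9a (-1.69), Zdbf2 (-1.31), Inpp5f (-0.97) and Copg2 (-0.57), and Copg2 was lost with DESeq2, without a filter on low counts and with the stricter filter (adjusted p = 0.0669, 0.0758 and 0.0560). Commd1 was lost without a filter on low counts (adjusted p = 0.108). Trappc9 was called lower with the replicate as a block (-0.55, adjusted p = 0.0429).

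Pericyte-like cells, the mural cells of brain capillaries, had high Dlk1, Igf2, Meg3 and Airn and very low Usp29. Of 37 genes, 12 were higher than in RGC-like cells (background 16.8%) and 7 lower (background 21.9%), with a median log2 fold change of 0.33 against -0.23 over all genes. Over all genes 2150 were higher and 2792 lower under TMM, and 2658 and 1818 under DESeq2. The imprinted genes were called 14 higher and 6 lower under DESeq2. In the pericyte-like cluster 4 of 8 meningeal and 3 of 8 endothelial markers were on, and their part in the result was not tested.

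Dlk1 was the gene with the largest difference, at 495 and 357 CPM, a log2 fold change of 8.70 ± 0.36 (SE, edgeR adjusted p = 1.74e-10). It was seen in 78.4% and 54.3% of pericyte-like cells at 3000 UMIs per cell, and in 0 of 25 and 0 of 42 endothelial-like cells, which allows shares of up to 12% and 7.14%. Dlk1 was not confined to non-neural cells. At resolution 2.0 an unnamed cluster of 62 cells with 7 RGC markers on had Dlk1 among its leading genes. Igf2 was at 572 and 582 CPM, a log2 fold change of 8.53 ± 0.33 (SE, edgeR adjusted p = 6.50e-12). Meg3 was at 1536 and 1314 CPM and Rian at 481 and 425 CPM, log2 fold changes of 6.10 ± 0.49 (SE, edgeR adjusted p = 2.88e-08) and 6.08 ± 0.34 (SE, edgeR adjusted p = 3.14e-10). For Rian this was the highest class, apart from all others. Slc38a4 was at 20.2 and 26.5 CPM, a log2 fold change of 6.03 ± 0.58 (SE, edgeR adjusted p = 6.43e-07).

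Airn and Igf2r both had their highest level in pericyte-like cells. Airn was at 928 and 671 CPM, where RGC-like cells had 42 and 28.8 CPM, a log2 fold change of 4.45 ± 0.28 (SE, edgeR adjusted p = 1.17e-09), and Igf2r, the receptor that clears IGF2, at 265 and 181 CPM where RGC-like cells had 27.4 and 25.9 CPM, a log2 fold change of 3.0 ± 0.26 (SE, edgeR adjusted p = 6.09e-08). The genes overlap on opposite strands, and the sources used here do not state whether counting used the strand. Gnas was highest in this class too, at 2792 and 2531 CPM, higher by 1.64 on the log2 scale, and Mirg, H19, Mest and Sgce were higher by 5.81, 4.80, 2.79 and 0.80, of which Sgce was lost with doublets kept (adjusted p = 0.0708). Usp29 nearly vanished, with 0 and 1.56 CPM and a log2 fold change of -4.57 ± 0.65 (SE, edgeR adjusted p = 2.37e-05). Its neighbour Peg3 fell less, to 28.3 and 18.7 CPM, a log2 fold change of -1.58 ± 0.36 (SE, edgeR adjusted p = 0.0019). Plagl1, Zdbf2, Snrpn, Ppp1r9a and Inpp5f had log2 fold changes of -2.65, -2.47, -1.16, -1.0 and -0.81, and the call of Inpp5f was lost with plain library sizes (adjusted p = 0.0608), DESeq2 (0.172), the stricter filter (0.0649) and resolution 2.0 (0.0524). With the replicate as a block Commd1 was called higher (0.41, adjusted p = 0.0335).

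Endothelial-like cells, the lining of the vessels, had more Asb4, Igf2, H19 and Mest than RGC-like cells, while Meg3 was near its RGC-like level. Of 37 genes, 7 were higher than in RGC-like cells (background 17.7%) and 5 lower (background 26.3%), with a median log2 fold change of -0.22, or 0 with genes at 0 UMIs set to their bound, against -0.28 over all genes. Over all genes 2266 were higher and 3360 lower under TMM, and 2748 and 2249 under DESeq2, where 13 imprinted genes were called higher and 5 lower. Asb4, a substrate adaptor of ubiquitin ligases, was at 70.3 and 115 CPM in this class and at no more than 5.25 CPM in any replicate of the other classes tested, a log2 fold change of 6.47 ± 0.66 (SE, edgeR adjusted p = 1.08e-06) over RGC-like cells. Asb4 passed the low-count filter through this class, so its p-value is not independent of that filter. Igf2 was at 94.4 and 74.6 CPM, a log2 fold change of 5.76 ± 0.34 (SE, edgeR adjusted p = 3.40e-10), and H19 at 213 and 120.1 CPM, a log2 fold change of 4.51 ± 0.55 (SE, edgeR adjusted p = 3.64e-06). Igf2 was seen in only 4% and 11.9% of the thinned endothelial-like cells, so most of them had none at that depth. Its mean of 84.5 CPM was also far under the 644 CPM of meningeal-like and 577 CPM of pericyte-like cells.

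Airn was at 299.7 and 330.0 CPM, a log2 fold change of 3.13 ± 0.27 (SE, edgeR adjusted p = 4.21e-08), and Igf2r was higher by 1.37. Mest had its highest level here, 794 and 703 CPM, higher by 3.08 on the log2 scale, and so had Peg10, at 22.2 and 50.6 CPM, with a log2 fold change of 1.96. Meg3 stood at 27.8 and 12.6 CPM and Rian at 7.4 and 3.79 CPM, values near those of RGC-like cells, with log2 fold changes of -0.07 ± 0.55 (SE, edgeR adjusted p = 0.93) and -0.24 ± 0.68 (SE, edgeR adjusted p = 0.806) that had opposite signs in the replicates. Usp29 was at 1.85 and 2.53 CPM, a log2 fold change of -3.46 ± 0.52 (SE, edgeR adjusted p = 3.16e-05), and Zdbf2, Peg3, Nnat and Snrpn had log2 fold changes of -2.30, -2.01, -1.23 and -1.14. Ndn was called lower with the replicate as a block (-1.58, adjusted p = 0.00824).

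Neighbours within a locus were alike in some loci and unlike in others. As a description over the 10 classes, and with mean levels on the log2(CPM + 1) scale that share the same libraries and depths, Pearson's r was 0.99 for Meg3 and Rian, 0.92 for Meg3 and Mirg and 0.94 for Nnat and Blcap. It was 0.83 for Igf2r and Airn and 0.83 for Igf2 and H19. In contrast, it was 0.43 for Meg3 and Dlk1, 0.49 for Peg3 and Usp29 despite their shared start region, 0.05 for Grb10 and Cobl and -0.30 for Mest and Copg2, a coatomer subunit that overlaps Mest on the other strand. Igf2r and Airn, Nnat and Blcap, and Mest and Copg2 overlap on opposite strands and may share UMIs. Over the 35 pairs of the same locus the median was 0.60, with a range from -0.38 to 0.99, and over the 745 pairs of different loci it was 0.18, with a range from -0.92 to 0.94.

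**Figure D5:**
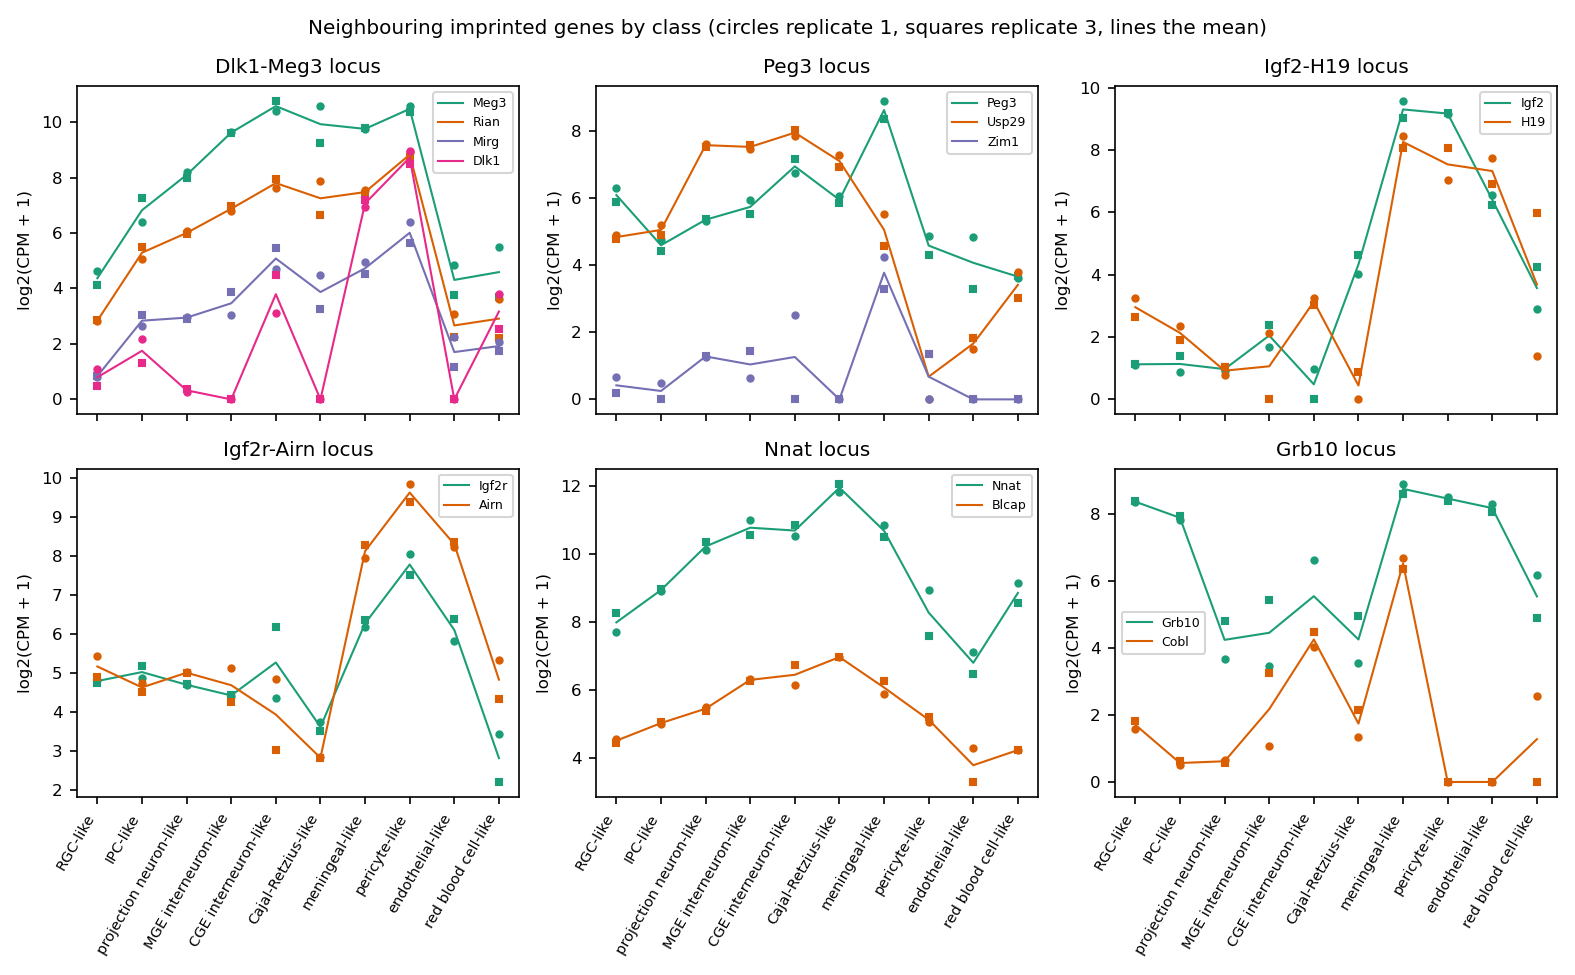
Level as log2(CPM + 1) (y axis) of neighbouring imprinted genes in 6 loci over the classes (x axis), with circles for replicate 1, squares for replicate 3 and lines through the means. Of the classes shown, Dlk1 is highest in the meningeal-like and pericyte-like columns, with 495 and 357 CPM in the latter. Peg3 and Usp29 cross between neuronal and non-neural classes.

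Of the members described less so far, Kcnq1ot1, the noncoding RNA that silences genes of its locus on the paternal chromosome, lay between 162 and 333 CPM in the 9 classes other than red blood cell-like. Ube3a was at 215 and 219 CPM in RGC-like and 429 and 396 CPM in MGE interneuron-like cells, and Ndn at 72.8 and 118 CPM in the first and 57.1 and 115 CPM in the second. Impact, a regulator of translation, ran from 22.7 and 9.56 CPM in red blood cell-like to 36.2 and 52.5 CPM in meningeal-like cells. Copg2 differed little along the lineage, at 83.4 and 75.9 CPM in the RGC-like class and 78.4 and 79.5 CPM in the projection neurons. Of the genes that were not tested, Mkrn3 was at 5.93 and 7.45 CPM in RGC-like cells, Magel2 at 0.957 and 0.587 CPM with 2.86 and 42.5 CPM in CGE interneuron-like cells, and Phlda2, known for its role in placental growth, had 0 UMIs in the RGC-like class and 3 and 1 UMIs in the IPC-like class.

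A second list held 40 further imprinted genes, of which 29 were tested. In IPC-like against RGC-like cells 4 were higher (background 11.0%) and 10 lower (17.0%), and in projection neuron-like against RGC-like cells 10 were higher (26.6%) and 10 lower (28.8%). Cdkn1c, an inhibitor of cyclin-dependent kinases, rose from 16.6 and 20.1 CPM in RGC-like to 105 and 194 CPM in IPC-like cells, a log2 fold change of 3.01 ± 0.44 (SE, edgeR adjusted p = 5.50e-05), and was at 1186 and 951 CPM in meningeal-like cells. Pon2, a paraoxonase, fell from 24.8 and 26.1 CPM in RGC-like to 0.176 and 0.483 CPM in projection neuron-like cells, and Rasgrf1, a Ras exchange factor, rose from 0.478 and 0.541 to 11.8 and 13.6 CPM, log2 fold changes of -5.23 ± 0.34 (SE, edgeR adjusted p = 8.73e-10) and 4.08 ± 0.41 (SE, edgeR adjusted p = 3.99e-07).

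In the other comparisons of this list, 6 were higher (background 21.2%) and 7 lower (18.9%) in projection neuron-like against IPC-like cells. Against projection neuron-like cells, 2 were higher (12%) and 5 lower (16.5%) in MGE interneuron-like cells, and 5 higher (11.9%) and 3 lower (12.5%) in Cajal-Retzius-like cells, where 1 of the 5, Pon2, differed in sign between the replicates. Against RGC-like cells, 10 were higher (21.8%) and 7 lower (24.3%) in meningeal-like, 14 higher (16.8%) and 3 lower (21.9%) in pericyte-like and 11 higher (17.7%) and 2 lower (26.3%) in endothelial-like cells. Kcnq1, the potassium channel gene that Kcnq1ot1 overlaps, was at 64.8 and 29.1 CPM in the endothelial-like class and at 0.574 and 0.451 CPM in the RGC-like class, a log2 fold change of 5.78 ± 0.51 (SE, edgeR adjusted p = 1.28e-07), while Kcnq1ot1 itself was at 205 and 207 CPM in the former and 185 and 201 CPM in the latter. Rtl1, which is antisense to a part of Rian, was at 18.2 and 7.79 CPM in pericyte-like cells, a log2 fold change of 4.40 ± 0.66 (SE, edgeR adjusted p = 6.92e-05).

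All 15 genes of a list of factors that keep or remove the imprint were tested. In projection neuron-like against RGC-like cells 2 were higher (background 26.6%) and 8 lower (28.8%). Uhrf1 fell from 75.4 and 74.3 to 1.64 and 2.11 CPM, a log2 fold change of -4.98 ± 0.29 (SE, edgeR adjusted p = 2.30e-10), and Dnmt1 from 95 and 92.5 to 38.6 and 34 CPM, a log2 fold change of -1.24 ± 0.17 (SE, edgeR adjusted p = 8.87e-06). Zfp57 rose from 15.5 and 19 to 87.4 and 79.6 CPM, a log2 fold change of 2.37 ± 0.20 (SE, edgeR adjusted p = 1.71e-08). Counts higher and lower were 2 and 6 in IPC-like against RGC-like, 1 and 4 in projection neuron-like against IPC-like, 3 and 1 in MGE interneuron-like and 2 and 4 in Cajal-Retzius-like against projection neuron-like cells. They were 1 and 9 in meningeal-like, 1 and 9 in pericyte-like and 1 and 11 in endothelial-like against RGC-like cells. The background shares are those given for the same comparisons above, and over all genes too the lower calls outnumbered the higher in each comparison with RGC-like cells, a balance that turned under DESeq2 in the last 3. Dnmt3b, a de novo methyltransferase, was the gene higher in endothelial-like cells, at 44.4 and 36.7 against 6.03 and 6.05 CPM, a log2 fold change of 2.64 ± 0.32 (SE, edgeR adjusted p = 3.65e-06). Dnmt3a, the other de novo methyltransferase, was at 211 and 175 CPM in Cajal-Retzius-like cells, where the projection neurons had 20.2 and 19.6 CPM, a log2 fold change of 2.99 ± 0.18 (SE, edgeR adjusted p = 3.59e-09).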

How the data were processed

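UMI counts per gene and cell barcode were used as deposited, without normalization. The authors made them with Cell Ranger 7.0.0 on mm10 from 10x Genomics 3′ libraries. Annotation, intron setting, strand setting and cell calling are not given in the sources used here. Barcodes below 1500 or above 60000 UMIs, or with 10% or more of their UMIs from mitochondrial genes, were removed (710 and 1387), and 269 and 531 barcodes with the highest simulated-doublet scores were removed. Leiden clusters (scanpy 1.11.5, 2000 variable genes without the 3 gene lists, 30 components, 15 neighbours, resolution 1.0) were named when at least 3 markers of a class were on. Since classes were drawn from other genes of the same cells, differences between them are not independent of that clustering.

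UMIs were summed per class and replicate, for classes of at least 20 cells in each replicate, and tested in 1 fit over 10 classes with edgeR 4.0.16 (quasi-likelihood test, TMM, filterByExpr, prior count 2, Benjamini-Hochberg adjustment over 12773 genes, threshold 0.05). The SE was taken as the size of the log2 fold change divided by the root of its F statistic. Sums with the same replicate number come from 1 library, so the number pairs them. Correlations of their deviations ran from -0.08 to 0.33 over 45 pairs. The test was checked on simulated data with independent sums and changes set in the first comparison only. That check does not cover library effects shared between classes. A share of 0 was bounded with 3 counts, and intervals cover counting error only.

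Full values are given for the 5 called genes of each comparison with the largest fold change and the same direction in both replicates, and for neighbours in their loci, and up to 3 per comparison of the other lists. Other members are named by count or value, some chosen after their values were seen. Positions, promoter windows and names are RefSeq (GRCm38.p6), and overlaps GENCODE vM39. The 40 genes and both further lists were chosen with earlier results of these data known. Alternatives were plain library sizes, DESeq2 1.42.0, no low-count filter, a replicate block, a stricter cell filter (3000 UMIs, 5% mitochondrial), doublets kept, resolution 2.0 and each replicate left out.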

Additional observations from a re-analysis of the deposited data

How the results depend on the processing

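The 8 comparisons gave 137 calls of imprinted genes, 90 higher and 47 lower. Over the alternative fits these gave 1079 values, of which 1010 kept direction and threshold, 68 kept the direction only, and 1 turned (Kcnk9 in IPC-like minus RGC-like cells at resolution 2.0, 2.22). Of 1230 values of genes not called, 52 passed the threshold. In MGE interneuron-like minus projection neuron-like cells the 8 calls became 4 with the stricter filter on cells and 4 with doublets kept. No other total of higher and lower calls moved by more than 1.5 times. Taken apart, the higher calls in endothelial-like minus RGC-like cells went from 7 to 13 with DESeq2, and the lower calls in Cajal-Retzius-like minus projection neuron-like cells from 7 to 3 with plain library sizes, 2 with DESeq2 and 4 with doublets kept. The stricter filter gave no value for endothelial-like cells, since a replicate then held under 20 of them. The replicate block lost no call and added 10, which are given beside the results. DESeq2 gave 97 higher and 40 lower, and plain library sizes 84 and 44. Both shifted the median of all genes, in Cajal-Retzius-like minus projection neuron-like cells from -0.07 to 0.08 and 0.19, and with DESeq2 in pericyte-like and endothelial-like minus RGC-like cells from -0.23 to 0.0049 and from -0.28 to -0.03. Leaving out the shallow projection neuron-like cluster led by noncoding RNAs, an alternative added after seeing the data, gave 90 higher and 47 lower.

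The UMI share of the 40 genes moved with doublets kept to 0.331% in IPC-like, 0.331% in RGC-like, 0.512% in MGE interneuron-like and 0.821% in meningeal-like cells, and with the stricter filter to 0.419% in endothelial-like cells. Without Meg3 it was 0.387% in projection neuron-like, 0.472% in MGE interneuron-like, 0.748% in Cajal-Retzius-like, 0.777% in meningeal-like and 0.793% in pericyte-like cells. With 1 replicate left out it ran from 0.298% to 0.323% in IPC-like and from 0.873% to 0.999% in pericyte-like cells. Shares of cells with a UMI follow depth. Thinned to 1500 UMIs they were 2.43% (Meg3) and 37.3% (Grb10) in RGC-like, 24.1% (Meg3) in projection neuron-like and 38.4% (Dlk1) in pericyte-like cells, and without thinning 15.4%, 91.2% and 54.4% for the first 3. Fits without 1 replicate have no residual degrees of freedom and give fold changes only, which kept their direction for the 5 genes chosen by the rule in each comparison. With 26 to 46 cells in the endothelial-like class, low genes there could not be told from 0.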

Other observations

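Some imprinted genes differed between the libraries in many classes at the same time. The main fit did not model this difference, and only the alternative with the replicate as a block took it up. In classes with at least 20 UMIs per replicate, Ndn was higher in replicate 3 in 7 of 9 classes, with a median ratio to replicate 1 of 1.90 and a range from 0.654 to 3.52. It was at 72.8 and 118 CPM in RGC-like, 85.1 and 187 in projection neuron-like and 57.1 and 115 in MGE interneuron-like cells, but at 357 and 234 CPM in Cajal-Retzius-like cells. Mest was lower in replicate 3 in 7 of 8 classes, with a median ratio of 0.670 and a range from 0.368 to 1.08.

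In microglia-like cells (5 and 29 cells) the 40 genes supplied 0.240% ± 0.056 of UMIs (SD, n = 2), and Nnat was at 524 and 259.9 CPM. H19 was at 1.62 and 62.1 CPM in red blood cell-like cells, where replicate 3 lay far above replicate 1.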
